A study of Homo sapiens with 3 samples.

Results

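The clustered protocadherins are cadherin-like adhesion proteins of the neuronal surface whose genes lie in 3 neighbouring clusters, alpha, beta and gamma, on human chromosome 5. They were taken here as all protein-coding genes with an alpha, beta or gamma protocadherin symbol after matching Ensembl identifiers to GENCODE release 29. This gave 53 members, of 60660 identifiers in the deposited table: 15 alpha, 16 beta and 22 gamma genes. The alpha and gamma clusters each end in C-type members (PCDHAC1 and PCDHAC2; PCDHGC3, PCDHGC4 and PCDHGC5), 5 in all. All 53 members run on the + strand, from the start of PCDHA1 to the end of PCDHGA1, chr5:140786136-141512981 on GRCh38.

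The study measured RNA of the human neuroblastoma line SH-SY5Y in 3 libraries that form 1 group (replicates 1, 2 and 3), each from its own flask of adherent cells at about 60% confluency. The mRNA libraries were stranded and started from 500 ng of total RNA, with single reads of 50 bases. There is no second condition, so every comparison below is between genes or against a fixed level. Every SD is the spread over these 3 flasks of 1 cell line. The SEs and p-values from limma also draw on the variance of the other genes tested. The labels give no passage or clone for the flasks.

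As background, each alpha or gamma transcript begins with its own large variable exon, which codes for the extracellular cadherin repeats, and is spliced to constant exons that all members of that cluster share and that code for the common cytoplasmic end. Beta genes have no such constant exons. Each variable exon has its own promoter, and in most neurons a few of these promoters are active, chosen apart in each cell, with the insulator protein CTCF, cohesin and DNA methylation taking part in the choice. The C-type promoters are known in mouse to be used more uniformly across neurons of a type. The proteins bind copies of themselves on other cells, which lets a neuron tell its own branches from those of its neighbours.

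Most of the promoters carry a conserved sequence element around a 4-base core, CGCT. RefSeq promoter windows (GRCh38.p14, 300 bases: 250 before to 50 after the start) were found for 47 of 53 members; PCDHA3, PCDHA13, PCDHB6, PCDHB11, PCDHGA12 and PCDHGC5 had no entry in the table. The windows of 25 bases printed next were aligned, without gaps, to the commonest base of each cluster at every position, with positions counted from 1 at the 5′ end and the core at positions 14 to 17 in capitals. They are reference sequence, not read from this cell line. Each promoter was given its window of fewest mismatches, with no upper limit, so a printed window does not show that the element is present. The first set holds some of the high members of each cluster, shown because most of the RNA described below comes from them. The window of PCDHAC1, ranked 3 in alpha by mean level, is not printed. It had a core other than CGCT and 13 mismatches.

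PCDHAC2 (chr5:140966368.0-140966392.0, + strand): agcagtccgggttCGCTgtccgcca
PCDHA11 (chr5:140868886.0-140868910.0, + strand): aggcgcaaggtgtCGCTctttactt
PCDHA4 (chr5:140806982.0-140807006.0, + strand): agccacatgatgtCGCTctttacca
PCDHB3 (chr5:141100396.0-141100420.0, + strand): gaacgcatggtggCGCTgttgacta
PCDHB9 (chr5:141187077.0-141187101.0, + strand): agccacaaggtggCGCTgcagactg
PCDHGC3 (chr5:141475883.0-141475907.0, + strand): ggactctgtgtgcCGCTgtcggcca
PCDHGB7 (chr5:141417586.0-141417610.0, + strand): agcctctgggcgcCGCCgtcggcca
PCDHGC4 (chr5:141484955.0-141484979.0, + strand): tgagcccgggagcCGCTgtctgcca
PCDHGA7 (chr5:141382652.0-141382676.0, + strand): ggactcacagcgcCGCTgttcacca

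The second set holds members whose RNA was near the bottom of the range, together with PCDHA8, whose window equals the alpha consensus.

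PCDHA8 (chr5:140841133.0-140841157.0, + strand): agccacatgatgtCGCTgtctacca
PCDHA7 (chr5:140834175.0-140834199.0, + strand): ggccacatgatgtCGCTctttaccg
PCDHA9 (chr5:140848290.0-140848314.0, + strand): ggccacgtgatgtCACTctttgccg
PCDHB1 (chr5:141051340.0-141051364.0, + strand): tagcctttggtggTGCTgcagttag
PCDHB5 (chr5:141135182.0-141135206.0, + strand): ggacgcctggtggCGCTgcaggcta
PCDHGB6 (chr5:141407927.0-141407951.0, + strand): agcctctgggcgcCGCTgtcggcca
PCDHGA10 (chr5:141412934.0-141412958.0, + strand): ggactctgagcgcCGCTgttcacct

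In 43 of 47 windows the core was CGCT, and in 4 it was not. Each cluster's consensus itself holds CGCT, and each window was placed by its match to that consensus. The placement therefore favours a CGCT core, and the 43 of 47 does not measure how often the element is present. PCDHA9 differs from its cluster's consensus by G15A in the core, PCDHAC1 by G15T, PCDHB1 by C14T and PCDHGB7 by T17C. The consensus base is written first, then the member's. PCDHAC1, PCDHAC2 and PCDHB1 were the farthest from their consensus, at 13, 10 and 11 mismatches of 25, while the other 44 windows had 0 to 8. It was not shown that PCDHAC1, PCDHAC2 and PCDHB1 hold the element, so the core letters given for PCDHAC1 and PCDHB1 may not belong to it. Windows with 8 mismatches, PCDHA11, PCDHGB3 and PCDHGC4, are also uncertain. Among windows closer to their consensus, a core other than CGCT was seen in PCDHGB7 (5 mismatches), among the highest members, and in PCDHA9 (7 mismatches), among the lowest. PCDHGB6 and PCDHGB7 differ by 1 base in this window, T17C (the PCDHGB6 base first), and are far apart in the gamma levels given below. PCDHA7 and PCDHA9 differ by A7G, G15A and A22G (the PCDHA7 base first), and both were low. These matches describe reference letters and were not tested for an effect on the levels.

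Searched on both strands of the 300-base windows, the core CGCT was present in 46 of 47 members and in 24533 of 35064 promoters of other genes, which is 97.9% and 70.0%. Longer runs were chosen from the members themselves, as the commonest 9 bases ending in the core in each cluster, so their frequency in members is fixed by that choice. They were GATGTCGCT in 9 alpha members, GGTGGCGCT in 13 beta members and GGCGCCGCT in 6 gamma members, against 0.0799%, 0.465% and 1.06% of the other promoters. Each longer run contains the core. In the complete windows of the highest gamma and the highest alpha member, capitals mark the core of the window placed above.

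PCDHGC3 promoter (chr5:141475716-141476015, + strand): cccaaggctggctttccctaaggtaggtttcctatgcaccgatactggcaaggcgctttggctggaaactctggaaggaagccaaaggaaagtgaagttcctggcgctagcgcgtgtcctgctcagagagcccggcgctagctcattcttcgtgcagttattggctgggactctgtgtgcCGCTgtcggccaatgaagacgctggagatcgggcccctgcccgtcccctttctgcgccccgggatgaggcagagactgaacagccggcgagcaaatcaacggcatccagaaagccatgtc
PCDHAC2 promoter (chr5:140966226-140966525, + strand): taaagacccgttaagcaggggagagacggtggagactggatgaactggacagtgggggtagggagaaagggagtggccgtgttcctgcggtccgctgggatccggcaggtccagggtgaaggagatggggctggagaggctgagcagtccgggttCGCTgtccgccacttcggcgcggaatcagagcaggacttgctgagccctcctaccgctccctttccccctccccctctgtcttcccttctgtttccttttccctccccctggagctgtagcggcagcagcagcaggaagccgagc

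The deposited values are FPKM, fragments scaled to transcript length and library size, which allow levels to be compared between genes. The libraries summed to 1388319, 1456532 and 1374410 FPKM in replicates 1, 2 and 3. Steps in the low values gave an estimated 21550000, 28500000 and 43500000 reads, since 97.4%, 97.5% and 97.4% of low values then came within 0.1 read of a whole number, against 20% by chance. At that depth, 3 reads on a transcript of 3 kb correspond to 0.0464, 0.0351 and 0.0230 FPKM, so replicate 1 is the least precise for low members. The noradrenergic neuroblastoma markers HAND2, GATA3, DBH, CHGA and ISL1 were all above 1 FPKM and summed to 1532 to 1559 FPKM. Of 9 leukocyte, endothelial and epithelial markers, 0 were called above 1 FPKM, and CD3E, CDH5 and KRT5 were listed at 0. EPCAM, an epithelial marker, was called neither above nor below, with 1.08, 2.33 and 1.43 FPKM, and the epithelial list summed to 1.33 to 2.99 FPKM. Of 4 fibroblast markers, COL1A1, DCN and LUM were above 1 FPKM, COL1A2 was neither above nor below, and the list summed to 20.4 to 27.2 FPKM. The part of either list in the levels below was not tested.

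Most clustered protocadherins were at very low levels and a few members carried most of the RNA. Each value averages the cells of a flask, so it does not tell a low level in all cells from a higher level in a few. Of 53 members, 16 lay above 1 FPKM, 30 lay below it and 7 could not be placed (limma on log2(FPKM + 0.1), Benjamini-Hochberg adjusted p under 0.05 over 31736 genes). Among the 16750 protein-coding genes tested, 70.6% were above and 24.6% below, and among all genes tested 45.5% were above and 43.7% below. Of the members 30.2% were thus above the level, a smaller share than among protein-coding genes. The median member averaged 0.446 FPKM, against a median of 9.13 FPKM over protein-coding genes tested. All 53 members had a value above 0 in at least 1 library and so entered the test, and their means ran from 0.00900 FPKM (PCDHA13) to 41.6 FPKM (PCDHGC3). By mean, 27 members were under 0.5 FPKM (8 of them under 0.1), 5 were from 0.5 to 1, 13 from 1 to 5, and 8 at 5 FPKM or more. Against other levels the order of these shares was the same: 8 members were above 5 FPKM, against 56.6% of protein-coding genes tested, and 23 above 0.5 FPKM, against 74.2%.

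**Figure D1:**
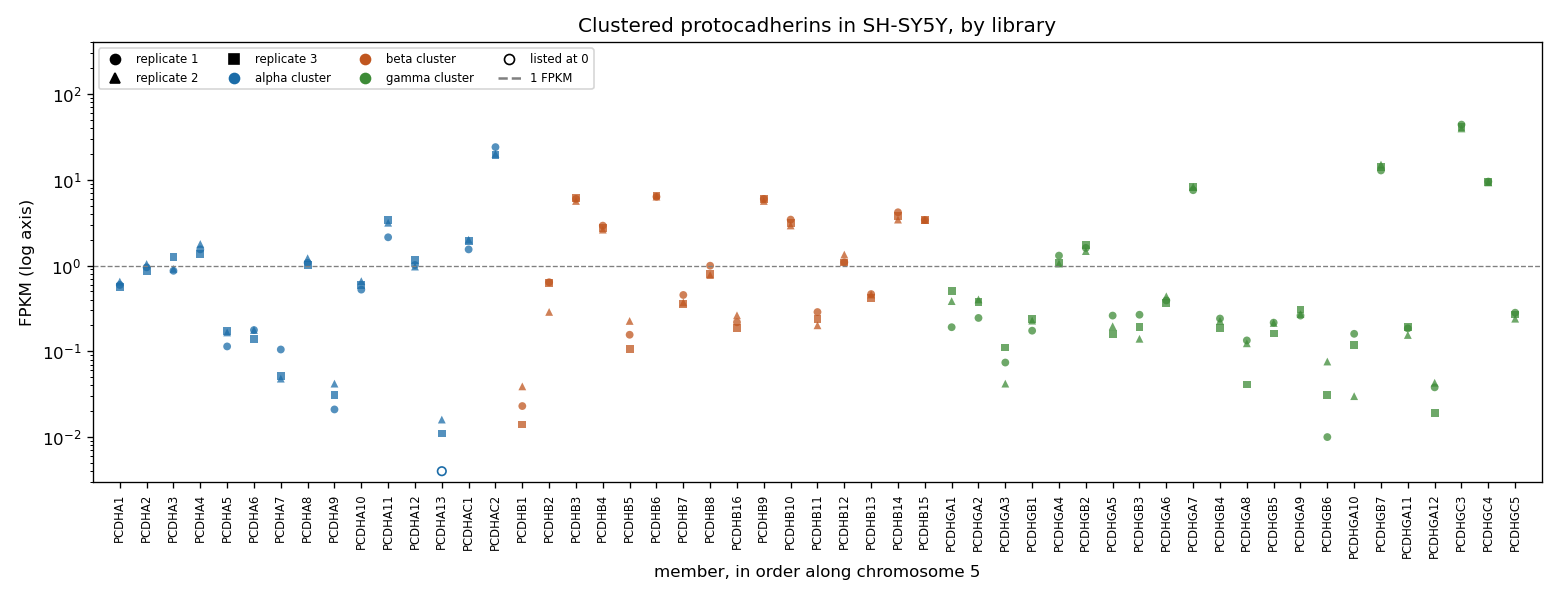
FPKM (log axis) of each of 53 clustered protocadherins in 3 SH-SY5Y libraries, in order along chromosome 5; marker shape gives the replicate, colour the cluster, the open circle a value listed at 0, and the dashed line 1 FPKM. PCDHGC3, PCDHAC2 and PCDHGB7 stand highest, and PCDHA13, PCDHB1 and PCDHA9 lowest.

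The summed RNA of the members was similar in the 3 libraries, at 151, 145 and 147 FPKM (147.6 ± 3.27, SD, n = 3). The gamma cluster held 53.6% ± 0.641 of it, the beta cluster 23.95% ± 0.408 and the alpha cluster 22.4% ± 0.638 (SD, n = 3). The 5 highest members, PCDHGC3, PCDHAC2, PCDHGB7, PCDHGC4 and PCDHGA7, together held 63.8% ± 0.862 of the sum, and the first 2 of them 42.5% ± 2.16. An effective number of members, the inverse of the summed squared shares, equals the count of members if all were equal. It was 7.60, 8.31 and 8.19 in replicates 1, 2 and 3. This number describes the pooled RNA of a flask, not the members used in a single cell.

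Of the 5 C-type members, 3 (PCDHGC3, PCDHAC2 and PCDHGC4) were among the 4 highest of all members, while PCDHAC1 and PCDHGC5 ranked lower, at 14 and 33 of 53. Their variable exons lie last in each cluster, next to the constant exons. PCDHGC3 (ENSG00000240184, chr5:141475947-141512979) was the highest of all members, with 44.0, 39.7 and 41.3 FPKM in replicates 1, 2 and 3 (41.6 ± 2.18, SD, n = 3). It lay 5.24 log2 above the level (SE 0.0729, limma adjusted p = 2.99e-05), and made up 52.6% ± 2.15 of the gamma sum and 28.2% ± 0.855 of all members. PCDHAC2 (ENSG00000243232, chr5:140966235-141012344), known in mouse for the spacing of serotonergic axons, was second, with 24.1, 20.0 and 19.3 FPKM. Replicate 1 was the highest here, and PCDHAC2 lay 4.26 log2 above the level (SE 0.1003, limma adjusted p = 5.34e-05). PCDHGC3 was 1.83, 1.98 and 2.14 times PCDHAC2 in the 3 libraries, so the pair kept its order in each.

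PCDHGC4, the gamma isoform that mouse neurons need for survival, had 9.53, 9.32 and 9.42 FPKM, among the tightest values of any member (9.42 ± 0.107, SD, n = 3). PCDHAC1 had 1.54, 2.00 and 1.95 FPKM (limma adjusted p = 0.00517), above 1 FPKM but well under PCDHAC2, which was 15.6, 10.00 and 9.89 times as high in replicates 1, 2 and 3. PCDHGC5, the C-type member below the level, had 0.282, 0.240 and 0.269 FPKM and lay below the level (log2 difference -1.599, limma adjusted p = 0.000279). PCDHGC3 was 158 ± 6.31 times PCDHGC5 within libraries (SD, n = 3). The C-type members therefore gave 4 above and 1 below the level, with a median of 9.42 FPKM, against 5 above, 22 below and 5 not placed among the 32 other alpha and gamma members, with a median of 0.249 FPKM. In log2 terms the C-type median exceeded that of the other alpha and gamma members by 4.77, 4.75 and 4.68 in replicates 1, 2 and 3 (4.73 ± 0.05, SD), in the same direction in 3 of 3 libraries (exact two-sided sign-flip p = 0.25, the smallest that 3 libraries allow). C-type members held 69.1% ± 3.98 of the alpha sum and 64.9% ± 2.17 of the gamma sum (SD, n = 3), and in both clusters the share was highest in replicate 1.

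The gamma cluster as a whole had 5 members above the level, 16 below and 1 not placed, with a median member at 0.241 FPKM. Its share above was 22.7%, against 70.6% of protein-coding genes and 45.5% of all genes tested. Outside the C-type, its A and B members, which alternate along the cluster and differ in the sequence family of their variable exon, were mostly under 0.5 FPKM. PCDHGB7 (ENSG00000254122, chr5:141417645-141512979) was the highest of them, with 12.8, 15.05 and 14.2 FPKM (14.05 ± 1.11, SD, n = 3), 3.68 log2 above the level (SE 0.0829, limma adjusted p = 4.94e-05). PCDHGA7 (chr5:141382739-141512979) followed with 7.56, 8.29 and 8.23 FPKM, 2.88 log2 above the level (SE 0.0725, limma adjusted p = 6.06e-05). In both, replicate 1 was the lowest, the opposite of PCDHGC3 and PCDHAC2. PCDHGB2 was the only other A or B member above the level, with 1.61, 1.48 and 1.74 FPKM (limma adjusted p = 0.00453, lost at 0.161 in TPM), and PCDHGA4 could not be placed, with 1.31, 1.05 and 1.08 FPKM.

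The other 15 gamma A and B members were all below 1 FPKM. PCDHGB6 had 0.010, 0.076 and 0.031 FPKM, in replicate 1 under the level of 3 reads on 3 kb, while PCDHGB7 was the second highest gamma member in each library. Their promoter windows differ by 1 base, and an effect of that base on the levels was not tested. The CGCT core of PCDHGB6 is also that of PCDHGC3, the highest gamma member. PCDHGA12 had 0.0380, 0.0430 and 0.0190 FPKM and PCDHGA10 0.160, 0.0300 and 0.118 FPKM. The rest were between PCDHGA3, at a mean of 0.0757 FPKM, and PCDHGA6, at 0.397 FPKM. High members thus stood beside low ones: PCDHGB7 was 80.4 ± 14.7 times its neighbour PCDHGA11, and PCDHGA7 was 20.3 ± 2.098 times the member before it, PCDHGA6 (SD over 3 libraries). The 5 highest gamma members held 94.5% ± 0.0422 of the cluster's sum, and its effective number was 3.00 ± 0.140 (SD, n = 3) of 22.

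Among the 3 clusters with all their members, the beta cluster was the most even. It had 7 members above the level, 7 below and 2 not placed, with a median member at 1.02 FPKM. The 43.75% above was near the 45.5% among all genes tested and under the 70.6% among protein-coding genes tested. The highest, PCDHB6 (chr5:141150022-141153287), had 6.34, 6.36 and 6.55 FPKM (limma adjusted p = 6.24e-05) and held 18.2% ± 0.722 of the beta sum. PCDHB3 had 5.99, 5.66 and 6.12 FPKM and PCDHB9 5.98, 5.66 and 5.98 FPKM, and the ranges of these 2 members overlap. PCDHB14 had 4.18, 3.43 and 3.75 FPKM. PCDHB15 had 3.39, 3.40 and 3.36 FPKM, the smallest relative spread of any member, with a coefficient of variation of 0.59%. PCDHB10 averaged 3.17 ± 0.252 FPKM and PCDHB4 2.755 ± 0.151 FPKM (SD, n = 3), which completes the 7 above the level.

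PCDHB12, at 1.09, 1.34 and 1.09 FPKM, and PCDHB8, at 0.996, 0.775 and 0.799 FPKM, were the members that could not be placed. Below the level lay PCDHB2, PCDHB5, PCDHB7, PCDHB11, PCDHB13 and PCDHB16, with means from 0.163 FPKM (PCDHB5) to 0.520 FPKM (PCDHB2), and PCDHB1. PCDHB2 had 0.639, 0.288 and 0.632 FPKM, with replicate 2 apart from the others, and its call (limma adjusted p = 0.0374) is lost without replicate 1 (0.0701) and without replicate 3 (0.0747). PCDHB1, at the edge of the cluster, had 0.0230, 0.0390 and 0.0140 FPKM, which corresponds to an estimated 3.97, 8.90 and 4.88 reads. By the same estimate PCDHB10 rested on 229, 258 and 423 reads and PCDHB7 on 34.9, 37.8 and 54.7, so that low members carry the larger counting error. PCDHB9 was 26.9 ± 5.07 times PCDHB16, the gene before it (SD over 3 libraries). The effective number was 7.95 ± 0.175 (SD, n = 3) of 16, and the 5 highest members (PCDHB6, PCDHB3, PCDHB9, PCDHB14 and PCDHB15) held 71.8% ± 0.948 of the beta sum.

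The alpha cluster had 4 members above the level, 7 below and 4 not placed, with a median member at 0.955 FPKM. Its share above was 26.7%, against 70.6% of protein-coding genes and 45.5% of all genes tested. PCDHA11 (chr5:140868183-141012344) was the highest alpha member outside the C-type, with 2.14, 3.16 and 3.37 FPKM (2.89 ± 0.659, SD, n = 3). Replicate 1 was below the other libraries, and the gene lay 1.42 log2 above the level (SE 0.168, limma adjusted p = 0.00351). PCDHA4 had 1.54, 1.79 and 1.38 FPKM and was above the level (limma adjusted p = 0.00998, lost at 0.222 in TPM). PCDHA2, PCDHA3, PCDHA8 and PCDHA12 averaged 0.955 to 1.10 FPKM and could not be placed on either side. PCDHA3 had 0.869, 0.914 and 1.25 FPKM, with replicate 3 the highest.

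Of the 7 alpha members below the level, PCDHA1 and PCDHA10 had means of 0.604 and 0.592 FPKM, and PCDHA5 and PCDHA6 of 0.151 and 0.165 FPKM. PCDHA7 had 0.105, 0.0480 and 0.0520 FPKM and PCDHA9 0.0210, 0.0420 and 0.0310 FPKM. PCDHA13 (chr5:140882208-141012344), the last alpha member before the C-type, was the lowest of all 53 members, listed at 0 in replicate 1 and at 0.0160 and 0.0110 FPKM in replicates 2 and 3. PCDHAC2 alone held 63.6% ± 4.94 of the alpha sum (69.3%, 60.9% and 60.6% in replicates 1, 2 and 3), which gave the cluster an effective number of 2.39 ± 0.305 of 15. Without both C-type members the effective number of the other 13 was 6.56 ± 0.631 (SD, n = 3), beside 7.95 of 16 in beta.

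**Figure D2:**
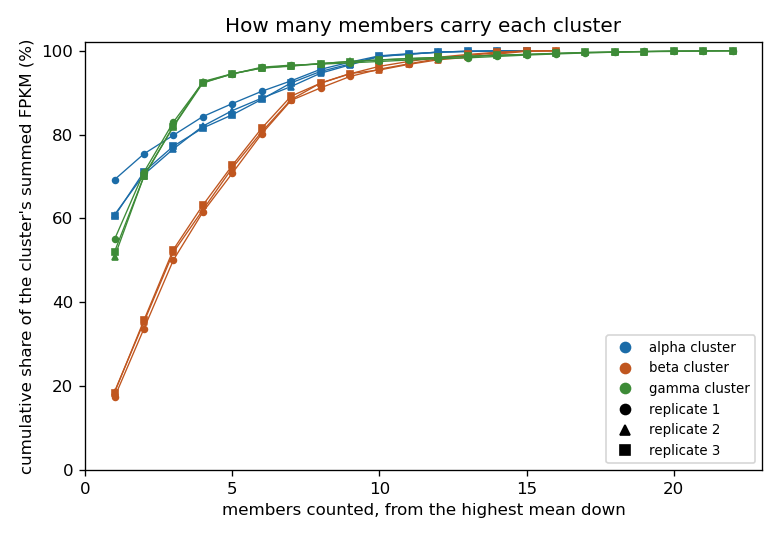
Cumulative share (%) of each cluster's summed FPKM against the number of members counted from the highest mean down, with 1 line per library. The first member held 63.6% of alpha, 52.6% of gamma and 18.2% of beta on average, and 5 members held 94.5% of gamma and 71.8% of beta.

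Between clusters, the median gamma member was lower than the median beta member, by a log2 difference of -1.69, -1.75 and -1.54 in replicates 1, 2 and 3 (-1.66 ± 0.11, SD). The median alpha member exceeded the median gamma member by 1.46, 1.602 and 1.45 log2 (1.503 ± 0.09, SD) and differed from the median beta member by -0.24, -0.15 and -0.10 log2 (-0.16 ± 0.07, SD). Each of these 3 differences had the same direction in 3 of 3 libraries, with an exact two-sided sign-flip p of 0.25, the smallest possible. The sizes depended on the summary: with the mean of the members' log2 values in place of the median, gamma minus beta was -0.87, alpha minus gamma 0.24 and alpha minus beta -0.63 log2, in the same directions. With a pseudocount of 1 the medians gave -0.69, 0.59 and -0.09 log2 for the same 3 differences. Without C-type members the alpha median differed from the beta median by -0.62 ± 0.09 log2 and the gamma median by -1.78 ± 0.03 log2 (SD, n = 3). Along the chromosome there was no clear gradient within a cluster: Spearman's rho between position and mean level, given as a description across genes that share libraries, was 0.25 in alpha (15 genes), 0.21 in beta (16 genes) and -0.0040 in gamma (22 genes). Without the C-type it was -0.14 in alpha (13 genes) and -0.35 in gamma (19 genes).

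Ranked by mean, the members formed 52 neighbouring pairs, of which 41 had overlapping ranges over the 3 libraries and 11 did not. The separate steps lay mostly at the top, where PCDHGC3, PCDHAC2, PCDHGB7, PCDHGC4, PCDHGA7, PCDHB6 and PCDHB3 followed each other with no overlap. PCDHB9 also stood apart from PCDHB14, and PCDHB14 from PCDHB15. Among low members most neighbours could not be ordered. The median SD of log2(FPKM + 0.1) between libraries was 0.141 over the members, against 0.130 over all protein-coding genes tested, which were higher in level. The pseudocount shrinks this SD in low members: PCDHA13 had 0.110, with a coefficient of variation of 90.9%. Between 0.5 and 5 FPKM the median SD was 0.140 for 18 members, against 0.201 for 2875 other protein-coding genes.

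The structure of the clusters limits how far a level can be given to 1 member. In the GENCODE 29 transcripts the 15 alpha members share 2866 exonic bases (within chr5:140978949-141012344), the 22 gamma members share 2181 (within chr5:141494807-141512979), and the beta members share none. A read in those constant exons does not tell which variable exon it belongs to, and no source used here says how such reads were divided. PCDHAC2, PCDHGC3 and PCDHGC4 each have 1 annotated transcript of which over 80% lies in exons of other members, with 76, 167 and 114 bases of its own, and no other member has such a transcript. The part of these transcripts in the high C-type values was not tested. Of all 50-base windows in their transcripts, alpha members shared a median of 49.3% with another member (19.5% to 65.2%), gamma members 44.1% (30.9% to 71.1%) and beta members 13.5% (0% in PCDHB1 to 45.7% in PCDHB8). Values of members with high shares, such as PCDHGB4 at 71.1%, are uncertain for this reason.

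Overlapping genes add a further limit. Of the members, 19 have an annotated gene on the other strand over part of their exons, and in 9 of these that gene averaged more FPKM than the member. Examples are AC005609.4 at 1.52 FPKM over PCDHA10 (0.592 FPKM) and AC005609.5 at 0.631 FPKM over PCDHA1 (0.604 FPKM). AC244517.7 averaged 2.99 FPKM over PCDHB10 (3.17 FPKM), and AC010223.1 averaged 1.13 FPKM over PCDHAC2 (21.1 FPKM). The kit keeps strand, but no source used here says whether the counting used it, so the values of these members are uncertain. On the same strand, 6 members overlap other annotated genes, among them PCDHA10 with PCDHA14, a pseudogene over 2298 of its exonic bases that averaged 0.374 FPKM.

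The 4 pseudogenes of the beta and gamma clusters on the list were all below 1 FPKM, against 43.7% of all genes tested. Their means were 0.434 FPKM (PCDHB17P), 0.489 FPKM (PCDHB18P), 0.162 FPKM (PCDHB19P) and 0.0463 FPKM (PCDHGB8P). These means lay within the range of the low members. Genes flanking the clusters or lying between them were higher. Of 12 such neighbours 11 were above 1 FPKM (70.6% among protein-coding genes tested), with a median of 22.3 FPKM, and SLC25A2, a mitochondrial carrier gene, was listed at 0. TAF7, a subunit of the general transcription factor TFIID, averaged 66.8 ± 1.79 FPKM. DIAPH1, a formin that assembles actin, averaged 25.7 ± 1.72 FPKM (SD, n = 3).

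The proteins known to act at protocadherin promoters were all present in RNA. All 18 genes of this list were above 1 FPKM (again against 70.6%), with a median of 39.8 FPKM. CTCF, which binds the conserved promoter element, averaged 23.2 ± 2.13 FPKM (SD, n = 3). The cohesin subunits RAD21, SMC1A and SMC3 averaged 124.8, 115.1 and 53.3 FPKM, the cohesin loader NIPBL 46.1 FPKM and the cohesin release factor WAPL 20.0 FPKM. SMCHD1 and SETDB1, silencing factors that act on these clusters in mouse, averaged 33.5 and 49.6 FPKM. The maintenance DNA methyltransferase DNMT1 was the highest of the list at 163.0 FPKM, and the de novo enzymes DNMT3A and DNMT3B averaged 48.1 and 4.49 FPKM, DNMT3B being the lowest. No DNA methylation or CTCF binding was measured in this study.

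Partners of the proteins were present as well. All 14 genes of the list were above 1 FPKM (against 70.6% of protein-coding genes tested), with a median of 73.6 FPKM. It holds kinases that bind the shared cytoplasmic end, of which PTK2 (FAK) averaged 131.6 FPKM and PTK2B (PYK2) 2.98 FPKM, the lowest of the list. The receptor tyrosine kinase RET, reported to phosphorylate protocadherins, averaged 73.8 FPKM, and ADAM10, the protease that sheds their extracellular part, 82.7 FPKM. Members of the WAVE actin regulatory complex, which alpha protocadherins recruit, were among those above the level.

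The non-clustered protocadherins, single genes outside the 3 clusters, were also mostly low. Of 12, 3 were above 1 FPKM, 8 below and 1 (PCDH9) not placed (against 70.6% above and 24.6% below among protein-coding genes tested), with a median of 0.1002 FPKM. PCDH18 averaged 13.5 ± 1.86 FPKM, PCDH17 11.6 ± 0.888 FPKM and PCDH1 7.515 ± 0.308 FPKM (SD, n = 3). PCDHGC3 and PCDHAC2 stood above all of these, and the gamma member PCDHGB7, at 12.8 to 15.05 FPKM, overlapped the range of PCDH18, at 11.4 to 14.9 FPKM.

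**Figure D3:**
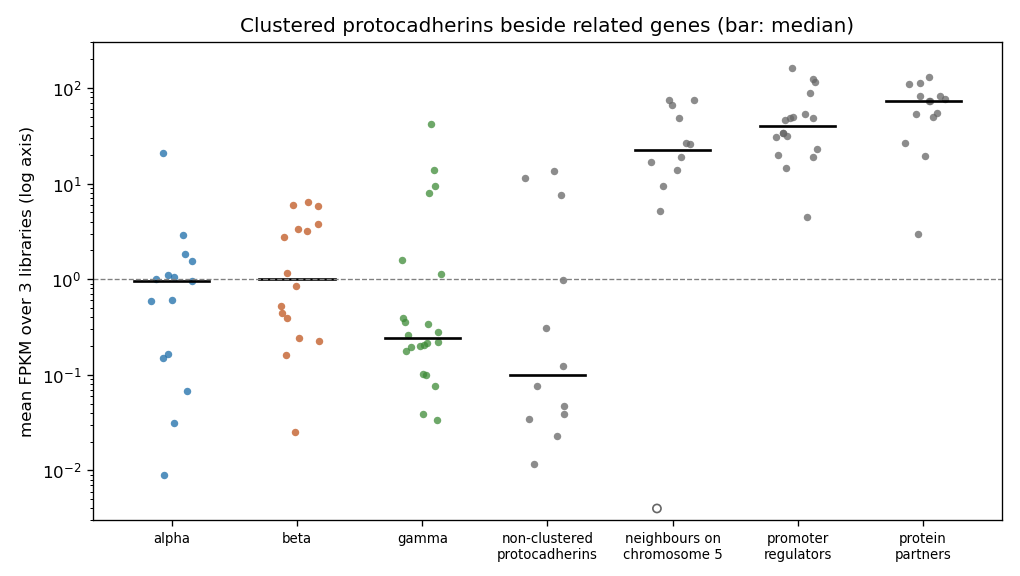
Mean FPKM over 3 libraries (log axis) of the alpha, beta and gamma members and of 4 related gene lists; each point is 1 gene, bars are medians, the open circle is SLC25A2, listed at 0, and the dashed line is 1 FPKM. Medians were 0.955, 1.02 and 0.241 FPKM for alpha, beta and gamma, against 0.1002 FPKM for non-clustered protocadherins, 22.3 FPKM for neighbours, 39.8 FPKM for regulators and 73.6 FPKM for partners.

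The promoter windows of the members were poor in G and C, except those of the C-type. Their median content was 39.7% over 47 members, against 58.7% over 35064 promoters of other genes. The 4 C-type members with a window had 59.0% to 66.0%, and the 43 others 32.3% to 51.3% with a median of 38.7%, so these ranges did not overlap. The ratio of observed to expected CpG was nonetheless similar, at a median of 0.593 for the members and 0.579 for the other promoters. Across the members outside the C-type, Spearman's rho between G and C content and level was -0.07 over 43 genes. By cluster it was 0.54 over 13 alpha, -0.30 over 14 beta and 0.22 over 20 gamma genes, values that include the C-type and are given as descriptions across genes.

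**Figure D4:**
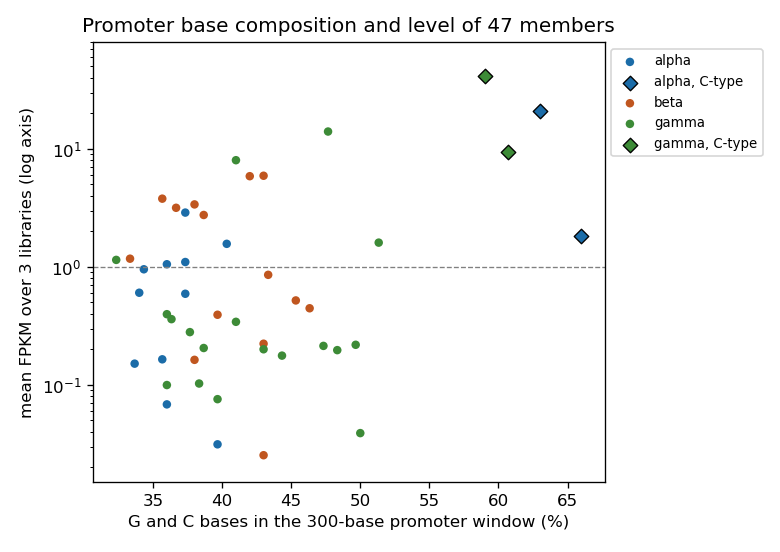
Mean FPKM over 3 libraries (log axis) against the percentage of G and C in the 300-base promoter window for 47 members; colour gives the cluster, outlined diamonds the C-type members and the dashed line 1 FPKM. The 4 C-type members lie at 59.0% or more and all other members at 51.3% or less, where levels range widely at any content.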

How the data were processed

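RNA-seq of 3 SH-SY5Y libraries was used, as FPKM values that the authors deposited in 1 table. Cufflinks 2.2.1, TopHat2 2.1.1, FastQC 0.10.1 and bcl2fastq, and the build hg38, come from the submitters' processing notes; their settings, the annotation release and the strand setting are not given in the sources used. Of 60660 identifiers, 57046 matched GENCODE 29 and 3614 did not; of 154 names shared by several identifiers the highest was kept. A moderated limma 3.58.1 fit (R 4.3.3; intercept only, two-sided) compared log2(FPKM + 0.1) with its value at 1 FPKM in the 31736 genes that had any value above 0, with Benjamini-Hochberg adjustment and a threshold of 0.05; distances of low genes are understated on this scale. The test was checked on simulated data. The limma p-values rest on the spread between 3 flasks, moderated by the variance of all genes tested. Cluster medians were compared within libraries by exact sign-flip tests. Other steps used scipy 1.17.1, pandas 2.3.3, numpy 2.4.6 and matplotlib 3.10.9 in Python 3.11.15. Reads per library were estimated from steps in the low FPKM values, and precision is limited by counting error below about 3 reads. Alternatives were pseudocounts of 1 and 0.01, TPM, median-ratio rescaling, levels of 0.5 and 5 FPKM, no filter, a mean of at least 0.1 FPKM, mean log2 values in place of cluster medians, and each library left out. All members and the genes of the lists could be named; PCDHA14 and the genes on the other strand were named after their values were seen. The members, lists and tests were chosen with earlier results of these data known.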

Additional observations from a re-analysis of the deposited data

How the results depend on the processing

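Members are called against 1 FPKM, and the calls depend mostly on that level. At 5 FPKM, 8 members were above (16 at 1 FPKM), with 1 alpha and 3 beta above and 14 alpha and 13 beta below (4, 7, 7 and 7 at 1 FPKM); at 0.5 FPKM, 8 alpha were above and 4 beta below. Of protein-coding genes, 74.2% were above 0.5 and 56.6% above 5 FPKM. In TPM 11 alpha members were below, and with a filter on means under 0.1 FPKM 4 were. Rescaling to TPM moved log2 values by -0.47, -0.54 and -0.46 in replicates 1, 2 and 3. All other counts were within 1.5 times. No cluster difference reversed, but their sizes moved: with the mean of the members' log2 values in place of the median, alpha minus gamma was 0.24 (1.503 with the median), alpha minus beta -0.63 (-0.16), gamma minus beta -0.87 (-1.66) and C-type minus the other alpha and gamma members 3.47 (4.73). With a pseudocount of 1 these were 0.59, -0.09, -0.69 and 3.05.

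Log2 differences changed sign for some members. Moving the level does this to every member between the old and the new level on the log2 scale. At 0.5 FPKM these were PCDHA1 (0.23), PCDHA2 (0.81), PCDHA10 (0.20) and PCDHB8 (0.67). At 5 FPKM they were PCDHA3 (-2.21), PCDHA4 (-1.62), PCDHA8 (-2.09), PCDHA11 (-0.80), PCDHA12 (-2.15), PCDHAC1 (-1.41), PCDHB4 (-0.84), PCDHB10 (-0.64), PCDHB12 (-2.01), PCDHB14 (-0.40), PCDHB15 (-0.55), PCDHGA4 (-2.04) and PCDHGB2 (-1.58). In TPM the sign changed for PCDHA3 (-0.44), PCDHA8 (-0.32), PCDHA12 (-0.38), PCDHB12 (-0.24) and PCDHGA4 (-0.27). PCDHA3 also reversed with a pseudocount of 0.01 (-0.0013), with median-ratio rescaling (-0.0034) and without replicate 3 (-0.15), where PCDHA12 did too (-0.0075); with each replicate left out in turn PCDHA3 ran from -0.15 to 0.092 and PCDHA12 from -0.0075 to 0.11. In TPM, PCDHA4 and PCDHGB2 were no longer called (log2 0.14 and 0.17, limma adjusted p = 0.222 and 0.161). PCDHGA1 lost its call without replicate 2 (limma adjusted p = 0.0765), and PCDHB2 with a pseudocount of 0.01 (0.0602) and with no filter (0.0828). No paired comparison of conditions was possible because there is 1 group, and only genes were compared within libraries. Depth limits members under about 0.05 FPKM, where a value rests on a few reads. The causes were not tested.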
